A study of Homo sapiens with 24 samples.

Results

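The imprinted long non-coding RNAs H19, MEG3, MEG8, KCNQ1OT1 and SNHG14 were followed in small RNA and ATAC sequencing of the established line HEK293, which derives from human embryonic kidney. Their members were the intervals of class lncRNA that carried one of these 5 names, 100 of 175946 small RNA features and of 155223 lncRNA intervals, and the ATAC windows on the same 100 rows with 600 flank windows. MEG3 held 31 intervals, MEG8 24, H19 22, SNHG14 17 and KCNQ1OT1 6. All cells had the wild-type genotype and overexpressed eGFP (the control group, GFP below), lamin A (LMNA), lamin B1 (LMNB1) or lamin B2 (LMNB2), with 3 libraries per group and assay and 24 libraries in all. Lamins form the filament meshwork under the nuclear membrane, and each was added to cells that still had their own lamin genes. The construct, its dose and the time after its introduction are not given in the sources used here. The labels give replicate numbers but do not say whether replicates were separate cultures, so p-values measure the spread between these libraries, which may be technical.

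Imprinted genes are expressed mainly from the allele of one parent, under the control of a differentially methylated region nearby. H19 is a maternally expressed RNA that shares its control region with the growth factor gene IGF2 and carries the microRNA gene MIR675. MEG3 and MEG8 are maternally expressed RNAs of the DLK1-DIO3 domain, where MEG8 carries the SNORD113 and SNORD114 C/D-box small nucleolar RNAs (snoRNAs) and where a large microRNA cluster lies. KCNQ1OT1 is a paternally expressed RNA that starts in a control region inside an intron of KCNQ1 and runs antisense to it, and it is known for silencing neighbouring genes in cis. SNHG14 is the paternally expressed host of the SNORD116 and SNORD115 snoRNA clusters of the Prader-Willi region, and its distal part runs antisense to UBE3A.

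The RefSeq table (GRCh38.p14) held promoters for 3 of the 5 genes. Not every interval described below starts there: the longest MEG3 interval begins 46.7 kb earlier, and the H19 gene body interval at chr11:1997900. The promoters are shown for the RefSeq starts. Each runs from 250 bases before to 50 bases after the start, 5′ to 3′ on the gene's strand, at chr11:2001217-2001516 (minus strand) for H19, chr14:100825858-100826157 (plus strand) for MEG3 and chr15:24823358-24823657 (plus strand) for SNHG14. Capitals mark matches to the cAMP-response palindrome TGACGTCA and to the TATA box TATAAA, searched on both strands.
H19: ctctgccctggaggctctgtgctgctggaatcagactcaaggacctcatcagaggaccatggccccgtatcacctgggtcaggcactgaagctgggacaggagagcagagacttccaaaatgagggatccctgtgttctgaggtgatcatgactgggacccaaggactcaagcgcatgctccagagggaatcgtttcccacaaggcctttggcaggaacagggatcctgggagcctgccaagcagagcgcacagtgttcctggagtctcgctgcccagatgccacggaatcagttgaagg
MEG3: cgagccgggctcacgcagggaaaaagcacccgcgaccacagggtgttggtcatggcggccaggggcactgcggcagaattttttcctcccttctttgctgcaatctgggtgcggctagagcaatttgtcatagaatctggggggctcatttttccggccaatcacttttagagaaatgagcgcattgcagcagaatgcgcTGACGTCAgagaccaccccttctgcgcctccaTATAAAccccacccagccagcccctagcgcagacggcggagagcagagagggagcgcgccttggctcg
SNHG14: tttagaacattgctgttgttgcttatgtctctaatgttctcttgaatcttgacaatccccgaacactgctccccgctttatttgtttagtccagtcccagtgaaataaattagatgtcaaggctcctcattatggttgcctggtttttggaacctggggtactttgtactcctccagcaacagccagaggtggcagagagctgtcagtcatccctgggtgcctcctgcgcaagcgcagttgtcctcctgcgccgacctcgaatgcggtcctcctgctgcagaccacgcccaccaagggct
The table held 3 MEG3 promoters with different starts, and the one with the first start is shown. It held 1 palindrome, which began 50 bases before the start, and 1 TATA box, which began 18 bases before it. The same matches stood 60 and 28 bases before the second start and 74 and 42 bases before the third. The palindrome occurred in 1.85% and the TATA box in 11.5% of 35116 RefSeq promoters of this length. Neither motif was found in the H19 or SNHG14 windows. MEG3 also had the most CpG dinucleotides of these windows, 19 (17 and 18 from the other starts) against 9 for SNHG14 and 6 for H19, where the median promoter had 14.

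The intervals also contain microRNA rows. Of the mature forms that lie wholly inside a counted row, the sequences given are those in H19 and MEG3, whose rows had no count, and those in the MEG8 rows with the most counts. Capitals mark the seed (bases 2 to 8). No seed is shared among these 5.
hsa-miR-675-5p, in H19: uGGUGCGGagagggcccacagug
hsa-miR-770-5p, in MEG3: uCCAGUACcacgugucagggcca
hsa-miR-2392, in MEG3: uAGGAUGGgggugagaggug
hsa-miR-543, in MEG8: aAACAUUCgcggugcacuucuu
hsa-miR-494-3p, in MEG8: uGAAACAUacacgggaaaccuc

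Total counts ran from 132.5 M to 195.1 M per small RNA library and from 156.0 M to 290.2 M per ATAC library. The share of ATAC counts on mitochondrial windows was 39.9% to 47.5% in GFP, 39.4% to 44.1% in LMNA, 32.8% to 34.1% in LMNB1 and 24.5% to 30.7% in LMNB2. Its part in the ATAC results below was not tested beyond a scaling without those windows, which made no call among the members. In the small RNA assay the TMM scaling factor ran from 0.631 in GFP replicate 1 to 1.31 in GFP replicate 3, so the GFP libraries stood further apart than those of the lamin groups (0.878 to 1.16). As a check of the labels, counts over lnc-TIMM13-3, which overlaps LMNB2, were 1075-fold higher in the LMNB2 than in the GFP small RNA libraries. ATAC counts over lnc-SEMA4A-1, which overlaps LMNA, were 402-fold higher in LMNA, but its small RNA level was 0.799 times GFP, so the small RNA libraries of LMNA were not checked by it. LMNB1-DT, a divergent transcript next to LMNB1, was at 0.990 and 1.02 times GFP in the respective assays of the LMNB1 libraries and checks nothing.

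The genes differed widely in how far they were measured. Small RNA counts passed the low-count filter for 6 SNHG14, 4 KCNQ1OT1 and 4 MEG8 intervals, 14 of the 100 members. None of the 22 H19 and 31 MEG3 intervals passed. Per kilobase of the interval nearest to the RefSeq gene, the level in CPM (the count scaled to the library size) averaged 0.00580 ± 0.000791 per kb for KCNQ1OT1 (SD over 12 libraries). It was 0.00145 ± 7.79e-05 for SNHG14 and 0.00105 ± 0.000269 for MEG8. H19 was at 0.000568 ± 0.000655 and MEG3 at 0.000224 ± 0.000201 CPM per kb. KCNQ1OT1 stood 4.01-fold above SNHG14 with no overlap between their libraries. The next neighbours in that order overlapped in every case: SNHG14 was above MEG8 in 11 of 12 libraries, MEG8 above H19 in 9 and H19 above MEG3 in 6. Among lncRNA intervals outside the mitochondrial chromosome, KCNQ1OT1 lay at the 81.7th percentile of small RNA density, SNHG14 at the 56.3rd, MEG8 at the 50.3rd, H19 at the 38.9th and MEG3 at the 22.3rd. The MEG8 values include short features inside its interval, which held 183 of its 216 counts. Less these, its level over 109.5 kb fell from 0.112 to 0.0234 CPM in GFP and from 0.0945 to 0.00668 in LMNA. In LMNB1 it fell from 0.10 to 0.0200 and in LMNB2 from 0.153 to 0.0194. The place of MEG8 above H19 thus rests on these short features. Overlapping intervals share reads, and in bulk samples fewer cells with a small RNA and less of it per cell cannot be told apart. The counts are those of small RNA libraries, and the level of the full-length transcripts was not measured.

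**Figure D1:**
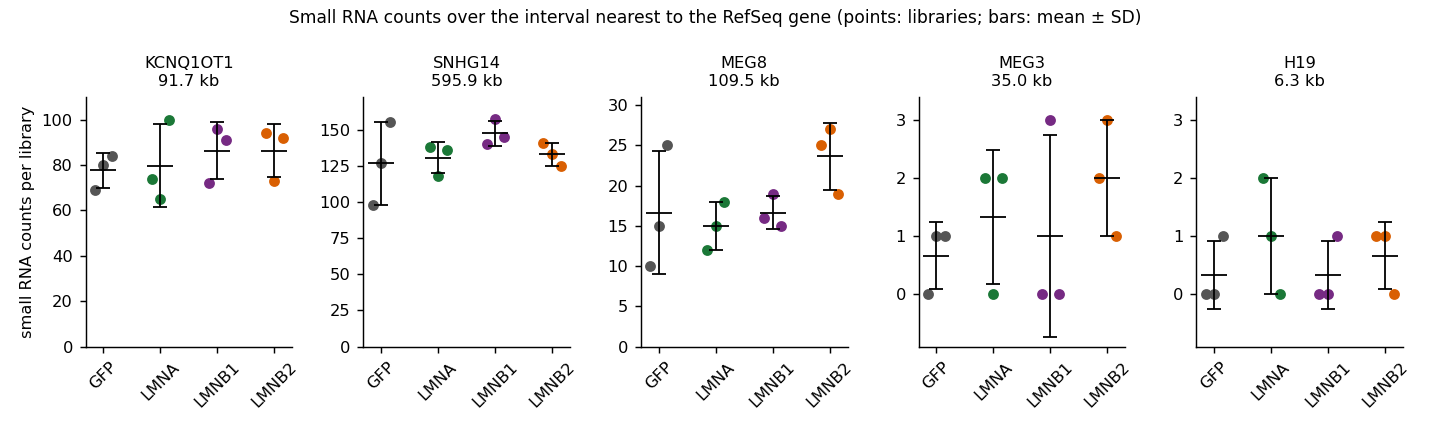
Small RNA counts per library (y axis, linear, own scale in each panel) over the interval nearest to the RefSeq gene, by group; points are libraries and bars are the mean ± SD of 3 libraries. KCNQ1OT1 lies between 65 and 100 counts and SNHG14 between 98 and 157 in every group, while MEG3 and H19 do not pass 3 and 2 counts.

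KCNQ1OT1, the cis-silencing RNA of the KCNQ1 domain, was the densest member. Its longest interval (chr11:2608303-2700023, minus strand, 91.7 kb) lies wholly inside KCNQ1, at RefSeq chr11:2445008-2849105. The use of strand in the counting is not given in the sources used here, so reads from KCNQ1OT1 and from KCNQ1 cannot be told apart. The GFP libraries had 69, 80 and 84 counts over it, the LMNA libraries 74, 65 and 100, the LMNB1 libraries 72, 96 and 91 and the LMNB2 libraries 94, 73 and 92. All groups overlapped. The levels were 0.551 ± 0.0677 CPM in GFP, and LMNA was at 0.498 ± 0.0754, LMNB1 at 0.517 ± 0.0769 and LMNB2 at 0.563 ± 0.0934 (SD, n = 3 each). The log2 fold change against GFP was -0.14 in LMNA, -0.09 in LMNB1 and 0.03 in LMNB2, each with a standard error of 0.18, and adjusted p was 0.975, 0.949 and 0.944 (edgeR's quasi-likelihood test, Benjamini-Hochberg over all tested features). As fold changes, the 95% intervals were 0.702 to 1.18, 0.728 to 1.22 and 0.790 to 1.32.

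Small RNA counts were not spread evenly along KCNQ1OT1. The interval over its first 24.7 kb (chr11:2675301-2700019) held 56.0% of the counts of the longest interval in 27.0% of its length. The next 34.8 kb held 29.2% and the last 32.2 kb held 14.8%. The first part was denser than the last in 12 of 12 libraries, by 3.39- to 10.7-fold with a median of 4.65-fold. ATAC signal showed the same order, with the first part denser than the last in 12 of 12 libraries by 7.38- to 15.7-fold. The densest interval of all members in small RNA was a 0.636 kb KCNQ1OT1 interval near the start (chr11:2697152-2697787), with 29 counts over the 12 libraries and at least 1 in each. Its ATAC window was low, at 0.0449 CPM per kb (9.08 counts per library) against 0.314 over the whole first part. An interval that begins 11.2 kb beyond the RefSeq 3′ end (chr11:2597089-2656599) had the lowest density of the 6, 15 to 40 counts per library over 59.5 kb. No annotated short RNA lies inside any KCNQ1OT1 interval. In the first part the log2 fold change was -0.07 ± 0.20 (SE) in LMNA, -0.07 ± 0.20 in LMNB1 and 0.28 ± 0.20 in LMNB2, where adjusted p was 0.466 by edgeR's test.

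SNHG14, the snoRNA host and UBE3A antisense RNA, had the most counts and the longest interval, 595.9 kb (chr15:24823583-25419486, plus strand). The GFP libraries had 98, 127 and 155 counts, the LMNA libraries 138, 118 and 136, the LMNB1 libraries 140, 157 and 145 and the LMNB2 libraries 141, 133 and 125. Scaled levels were close in all groups, at 0.883 ± 0.0465 CPM in GFP, and LMNA was at 0.823 ± 0.0324, LMNB1 at 0.882 ± 0.0678 and LMNB2 at 0.863 ± 0.0217 (SD, n = 3 each). The log2 fold change was -0.10 ± 0.14 in LMNA, -0.0010 ± 0.14 in LMNB1 and -0.03 ± 0.14 in LMNB2 (SE), with adjusted p of 0.975, 1.00 and 0.922 by edgeR's quasi-likelihood test. The 95% intervals of the fold change were 0.763 to 1.14, 0.819 to 1.22 and 0.800 to 1.20, the narrowest among the small RNA members.

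The counts of SNHG14 lay mostly at its distal end. The last interval (chr15:25269662-25419487, 149.8 kb) held 62.7% of the counts in 25.1% of the length and was denser than the part before it in 12 of 12 libraries, by 3.44- to 7.08-fold. Of this interval, 57.2% lies inside UBE3A, the ubiquitin ligase gene on the opposite strand (RefSeq chr15:25333728-25439056), so reads of the antisense RNA and of UBE3A cannot be told apart. The last 81.3 kb, all inside UBE3A, held on average at least 71.6 counts per library. ATAC signal did not follow this order: the last interval was less dense than the part before it in 12 of 12 libraries, at 0.666 to 0.979 times its density. Near its start, 155.1 kb of the longest interval overlap SNRPN, a coding gene of the same domain that has the same strand.

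**Figure D2:**
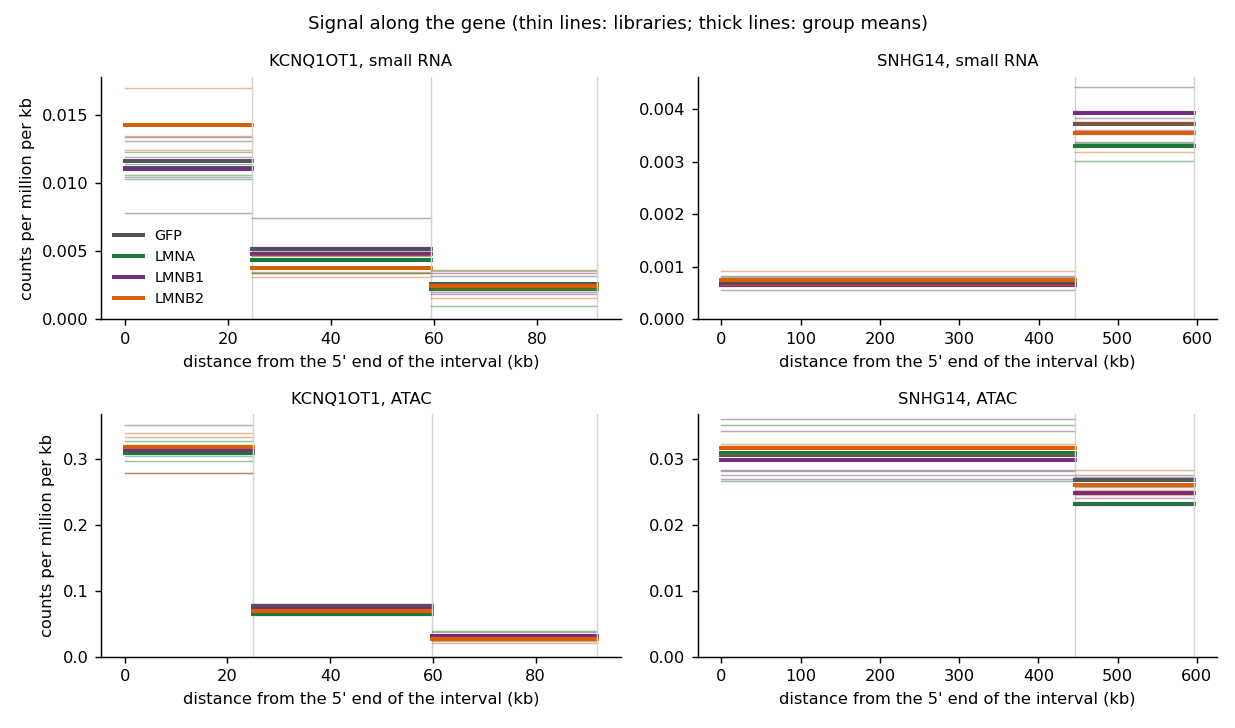
Small RNA (top) and ATAC (bottom) signal in CPM per kb (y axis, linear) along KCNQ1OT1 and SNHG14 against the distance from the 5′ end in kb (x axis); thin lines are libraries, thick lines group means and grey lines the borders of the parts. Both assays are highest over the first 24.7 kb of KCNQ1OT1. In SNHG14 the last interval is above the part before it in small RNA and below it in ATAC.

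Annotated snoRNAs accounted for very different shares of the 3 measured hosts. In MEG8's longest interval, short features inside it held 183 of 216 counts (84.7%). In SNHG14 they held 253 of 1613 counts (15.7%), and in KCNQ1OT1 none. SNORD114, the large C/D-box cluster of MEG8, had counts at 16 of 31 places and 166 counts in all, led by SNORD114-3 with 68 counts (2 to 10 per library). SNORD113, its smaller relative, had 5 counts at 3 of 9 places. SNORD116, the cluster tied to the Prader-Willi region, had counts at 24 of 30 places and 206 in all, led by SNORD116-25 with 39 counts and SNORD116-26 with 36. SNORD64, a single snoRNA gene of the same host, had 36 counts. SNORD115, known for its expression in brain, had 3 counts at 3 of 48 places. None of these short features passed the low-count filter, so none was tested. The microRNA rows gave 0 counts in H19 and MEG3 (MIR675, MIR770 and MIR2392), which allows up to 0.00160 CPM over the 12 libraries together (3 counts, counting error only). In MEG8 they gave 12 counts, 6 of them in the row of MIR543 and 2 in that of MIR494, which also covers part of the other arm.

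**Figure D3:**
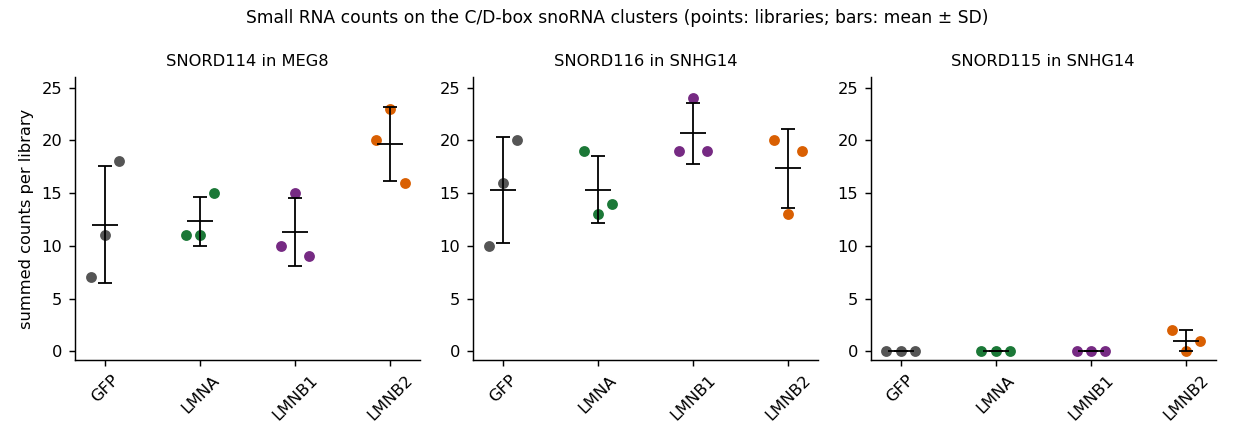
Summed small RNA counts per library (y axis, linear) on the snoRNA clusters SNORD114, SNORD116 and SNORD115, by group; points are libraries and bars are the mean ± SD of 3 libraries. SNORD114 runs from 7 to 23 and SNORD116 from 10 to 24 counts, and SNORD115 is at 0 in 10 of 12 libraries.

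MEG8, the snoRNA host of the DLK1-DIO3 domain, was measured over its longest interval (chr14:100889624-100999138, plus strand, 109.5 kb) at 10, 15 and 25 counts in GFP. The LMNA libraries had 12, 15 and 18 counts, the LMNB1 libraries 16, 19 and 15 and the LMNB2 libraries 25, 27 and 19. The levels were 0.112 ± 0.0275 CPM in GFP, and LMNA was at 0.0945 ± 0.0172, LMNB1 at 0.10 ± 0.0149 and LMNB2 at 0.153 ± 0.0190 (SD, n = 3 each). LMNB2 had the highest mean, and its counts overlapped those of GFP. Scaled, the LMNB2 libraries lay at 0.00123 to 0.00158 CPM per kb. They overlapped GFP, which reached 0.00129, but lay above every LMNA and LMNB1 library, which reached 0.00106. The log2 fold change was -0.25 ± 0.25 in LMNA, -0.18 ± 0.24 in LMNB1 and 0.38 ± 0.24 in LMNB2 (SE), with adjusted p of 0.947, 0.925 and 0.393. The joint test among the lamins gave an unadjusted p of 0.0284, or 0.255 as adjusted p (all by edgeR's test). Counts on SNORD114 averaged 19.7 ± 3.51 in LMNB2, 12 ± 5.57 in GFP, 12.3 ± 2.31 in LMNA and 11.3 ± 3.21 in LMNB1 (SD, n = 3, unscaled). GFP replicate 3, the library with the largest scaling factor, weighed on the comparison: without it the log2 fold change was 0.0024 in LMNA, 0.06 in LMNB1 and 0.62 in LMNB2. The LMNB2 value was 0.24 without GFP replicate 1, and no adjusted p passed 0.05 in either case by edgeR's test.

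MEG3 and H19 were at the limit of detection in the small RNA libraries. The interval that matches RefSeq MEG3 (chr14:100826083-100861051, plus strand, 35.0 kb) had 0, 1 and 1 counts in the GFP libraries, 2, 0 and 2 in those of LMNA, 0, 3 and 0 in those of LMNB1 and 2, 3 and 1 in those of LMNB2. This interval was chosen after the values were seen, because the longest MEG3 interval (chr14:100779385-100829210, 49.8 kb) lies for 93.8% of its length before the RefSeq start. That longest interval had 0 to 6 counts per library and 38 in all. The longest H19 interval (chr11:1995151-2001735, minus strand, 6.59 kb) had 0 to 2 counts per library and 7 in all, for which the exact Poisson 95% interval is 2.81 to 14.4 (counting error only). At this depth neither gene passed the low-count filter, so differences between groups were not tested in the main fit. A decrease from such counts could not be seen.

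Across the 14 tested small RNA members, 0 passed an adjusted p of 0.05 in LMNA, LMNB1 or LMNB2 against GFP. The same held for the joint tests over all 4 groups and among the lamins, with edgeR and with DESeq2. Of all 33893 tested features, 0%, 0.0384%, 2.66%, 1.68% and 1.93% passed in these 5 comparisons. At an unadjusted p of 0.05 the members numbered 0, 0, 0, 0 and 1, where all features gave 5.46%, 5.51%, 19.9%, 15.9% and 16%. The median log2 fold change of the 14 was -0.13 in LMNA, -0.06 in LMNB1 and 0.07 in LMNB2, beside -0.05, -0.05 and -0.04 over all tested features. The 4 MEG8 intervals were all above 0 in LMNB2, with a median of 0.34, and all below 0 in LMNB1, with a median of -0.34. They overlap and share their snoRNA counts.

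Chromatin accessibility, measured by transposase insertion in ATAC-seq, covered the genes far better. Windows on 99 of the 100 members passed the filter, the exception being 1 of the 17 SNHG14 windows. Per kilobase of the window nearest to RefSeq, H19 had the most ATAC signal at 0.169 ± 0.0138 CPM per kb (SD over 12 libraries). KCNQ1OT1 followed at 0.123 ± 0.00521, MEG3 at 0.0905 ± 0.00539, MEG8 at 0.0382 ± 0.00254 and SNHG14 at 0.0294 ± 0.00269. H19, KCNQ1OT1 and MEG3 did not overlap each other or MEG8 in any library. MEG8 was above SNHG14 in 12 of 12 libraries, although their ranges overlapped. Over these whole windows H19, at the bottom of the small RNA scale with MEG3, was thus the most accessible per kb, and SNHG14 the least. The windows differ in length, from 6.59 kb for H19 to 596 kb for SNHG14, and the order depends on the part taken. The first part of KCNQ1OT1 averaged 0.314 CPM per kb and was above the H19 window in every library. Among lncRNA windows H19 lay at the 67.7th percentile, KCNQ1OT1 at the 58.2nd, MEG3 at the 47.1st, MEG8 at the 13.4th and SNHG14 at the 6.40th.

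The windows also differed from their surroundings. Against its own 50-kb flanks as a pair, the SNHG14 window had log2 ratios of -1.71 to -1.29 over the 12 libraries. The MEG8 window had -1.0 to -0.77 and was less accessible than either flank in every library. For SNHG14 the low ratio came from the downstream flank, which averaged 0.146 CPM per kb against 0.0237 in the upstream flank. The SNHG14 window, at 0.0294, lay above its upstream flank in every library. The H19 window was above its pair of flanks in every library, at 0.32 to 0.73, and the RefSeq MEG3 window at 0.05 to 0.45. Against the downstream flank alone, both were lower in some libraries. In LMNA replicate 2, H19 was at 0.152 CPM per kb against 0.160. In LMNA replicate 1, RefSeq MEG3 was at 0.0848 against 0.0964. KCNQ1OT1 was close to its pair of flanks, at -0.21 to 0.11. Within H19, the 5′ part (3.8 kb) was denser than the gene body interval of 3.0 kb in 12 of 12 libraries, by 1.52- to 2.27-fold. Within MEG8, the 12.2 kb interval near the start (chr14:100894745-100906993) averaged 0.127 CPM per kb against 0.0227 over the 50.5 kb snoRNA interval (chr14:100936467-100986963).

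**Figure D4:**
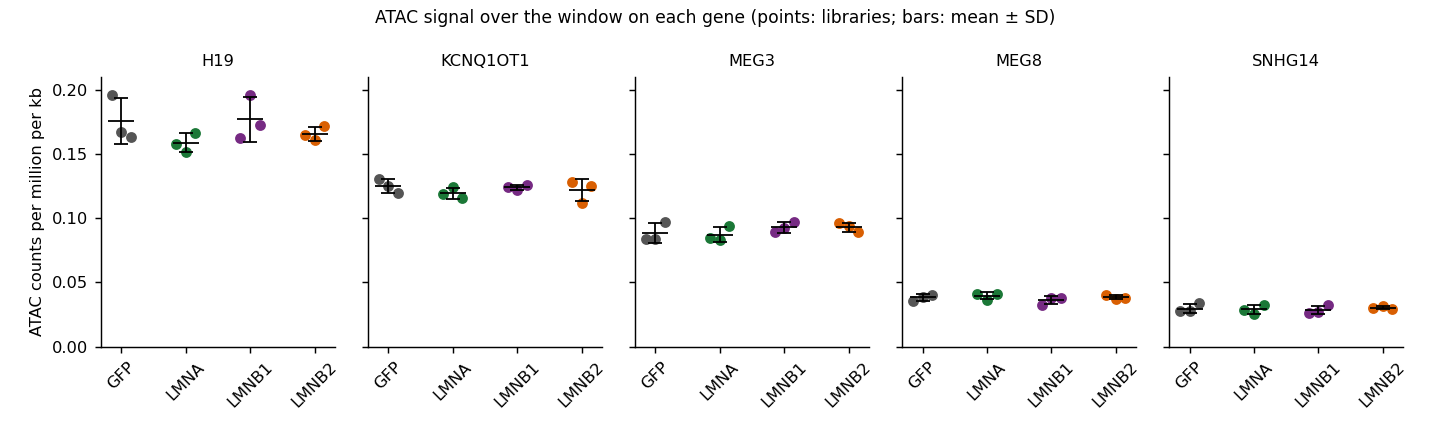
ATAC signal in CPM per kb (y axis, linear, shared) over the window nearest to the RefSeq gene, by group; points are libraries and bars are the mean ± SD of 3 libraries. The genes order from H19 (0.169) to SNHG14 (0.0294), and within each gene the 4 groups overlap.

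Lamin overexpression was not accompanied by a detectable change of accessibility over any member. For H19 the GFP windows had 205, 188 and 209 counts, the LMNA windows 208, 176 and 312, the LMNB1 windows 274, 384 and 289 and the LMNB2 windows 304, 303 and 283. Scaled per kb, GFP was at 0.176 ± 0.0179 CPM, LMNA at 0.159 ± 0.00735, LMNB1 at 0.177 ± 0.0174 and LMNB2 at 0.166 ± 0.00562 (SD, n = 3 each), and the groups overlapped. The log2 fold change of H19 was -0.14 ± 0.12 in LMNA, 0.02 ± 0.12 in LMNB1 and -0.08 ± 0.12 in LMNB2 (SE). For KCNQ1OT1 it was -0.06, -0.01 and -0.04 (SE 0.06 each), with 95% intervals of the fold change of 0.875 to 1.05, 0.908 to 1.08 and 0.893 to 1.07. RefSeq MEG3 was at -0.02, 0.07 and 0.07 (SE 0.09 each). MEG8 was at 0.05, -0.08 and 0.01 (SE 0.09, 0.08 and 0.08). SNHG14 was at -0.03, -0.05 and 0.03 (SE 0.09 each). The lowest adjusted p among these fold changes was 0.949, by edgeR's quasi-likelihood test over all 163786 tested windows.

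**Figure D5:**
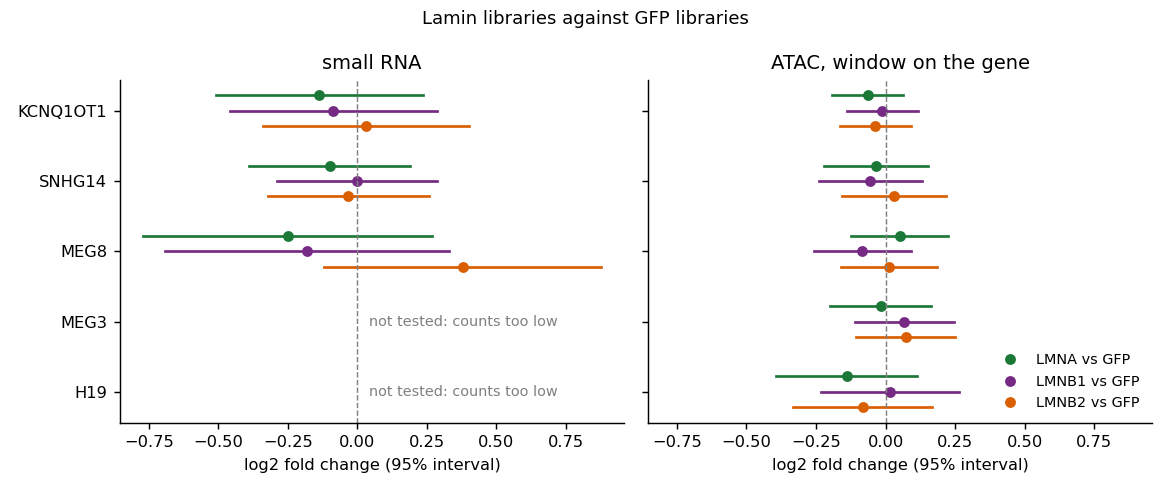
Log2 fold change against GFP (x axis) with its 95% interval for the interval nearest to each RefSeq gene, in small RNA (left) and ATAC (right); colours are the lamins. Every interval includes 0, and MEG3 and H19 had too few small RNA counts for a test.

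Among all 99 tested ATAC members, 0 passed an adjusted p of 0.05 in any of the 5 comparisons by edgeR or by DESeq2. Over all windows 0.000611% passed in LMNA, 0.00305% in LMNB1, 0.00244% in LMNB2, 0.0421% over the 4 groups and 0.0916% among the lamins. At an unadjusted p of 0.05 there were 3, 5, 3, 3 and 1 members (3.03%, 5.05%, 3.03%, 3.03% and 1.01%), where all windows gave 5.19%, 4.78%, 5.72%, 5.81% and 6.24%. The median log2 fold change of the members was -0.05 in LMNA, 0.02 in LMNB1 and 0.01 in LMNB2, beside -0.0013, -0.0017 and -0.0034 over all windows. Of the 22 H19 windows, which overlap one another, 19 were below 0 in LMNA, 1 in LMNB1 and 20 in LMNB2.

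The members with the smallest unadjusted p, named after their values were seen, were short or weakly covered. A KCNQ1OT1 window on a 0.430 kb interval (chr11:2675301-2675730) had 20, 11 and 15 counts in GFP. LMNA had 25, 19 and 36, LMNB1 had 5, 18 and 21 and LMNB2 had 43, 44 and 28. Its mean was highest in LMNB2, whose libraries overlapped GFP. Scaled, LMNB1 lay at 0.0287 to 0.122 CPM per kb, below every LMNA library (0.159 to 0.186) and every LMNB2 library (0.165 to 0.226). The joint test among the lamins, which leaves GFP out, gave an unadjusted p of 0.00592, or 0.471 as adjusted p (edgeR). A MEG8 window on a 6.06 kb interval (chr14:100961003-100967066) had 48, 32 and 49 counts in GFP. LMNA had 30, 24 and 44, LMNB1 had 34, 32 and 44 and LMNB2 had 43, 50 and 31. Its counts overlapped between groups, whereas scaled to library size the 3 GFP libraries, at 0.0297 to 0.0480 CPM per kb, lay above all 9 lamin libraries, at 0.0171 to 0.0277. Its log2 fold change was -0.71 in LMNA, -0.81 in LMNB1 and -0.68 in LMNB2, with adjusted p of 0.933, 0.978 and 0.862. Another MEG8 window (chr14:100913359-100914997) lay on the other side, at 0.81, 1.02 and 1.27, and its GFP libraries had 6, 12 and 2 counts. Scaled, GFP reached 0.0373 CPM per kb, which overlapped LMNA and LMNB1 but not LMNB2, whose lowest library was at 0.0481.

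The flanks were fitted together with all windows. They begin 350 bp outside each window and extend 500, 5000 or 50000 bp, and 543 of the 600 were distinct places. Of these, 454 passed the filter, and 0 passed an adjusted p of 0.05 in any comparison by edgeR, where 0.00155%, 0.00511%, 0.0312%, 0.099% and 0.087% of all 1095762 windows did. The unadjusted p was under 0.05 for 16 distinct flanks in LMNA, 16 in LMNB1, 11 in LMNB2, 11 over the 4 groups and 22 among the lamins (2.42% to 4.85%), where all windows gave 5.36%, 5.25%, 6.04%, 6.16% and 6.26%. Upstream flanks of 500 bp separated the genes. The flank of the longest KCNQ1OT1 window (chr11:2700499-2700998) averaged 0.756 CPM per kb and that of H19 (chr11:2001967-2002466) 0.485. The flank of RefSeq MEG3 (chr14:100825108-100825607) averaged 0.0750, and the MEG8 and SNHG14 flanks had too few counts for a test, 5.92 and 1.08 per library.

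The KCNQ1OT1 upstream flank, just outside the start of the RNA, had 72, 102 and 67 counts in GFP. LMNA had 75, 73 and 112, LMNB1 had 98, 95 and 57 and LMNB2 had 106, 99 and 75. Its scaled signal was 0.932 ± 0.253 CPM per kb in GFP, and LMNA was at 0.790 ± 0.0403, LMNB1 at 0.618 ± 0.160 and LMNB2 at 0.683 ± 0.0786 (SD, n = 3 each). The GFP libraries spread most, and they overlapped each lamin group. The log2 fold change was -0.22 ± 0.21 in LMNA, -0.58 ± 0.21 in LMNB1 and -0.43 ± 0.21 in LMNB2 (SE), with unadjusted p of 0.302, 0.00984 and 0.0474 and adjusted p of 0.976, 0.948 and 0.826 by edgeR's test. The H19 upstream flank had 58, 35 and 48 counts in GFP and 53, 55 and 43 in LMNB2. Scaled, these were 0.411 to 0.732 CPM per kb in GFP and 0.344 to 0.384 in LMNB2, which did not overlap. The log2 fold change was -0.54 ± 0.26 (SE), with an unadjusted p of 0.0479 and an adjusted p of 0.827 by edgeR's test.

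Other imprinted non-coding RNAs were taken as a list of 21 names, 20 of which occurred, with 100 intervals. In small RNA, 10 intervals of 3 names passed the filter: GNAS-AS1, the antisense RNA of the GNAS locus, had 59 to 134 counts per library over its longest interval, HYMAI of the PLAGL1 locus 31 to 67 and PWRN4 of the Prader-Willi region, named here because it passed, 4 to 15. Of these 10 intervals 0 were called, and of the 100 ATAC windows 0 were called, in any comparison by edgeR. At an unadjusted p of 0.05 the small RNA intervals numbered 2 of 10 in LMNB2, where all features gave 19.9%, and 0 in the other comparisons. The ATAC windows numbered 7, 10 and 11 of 100 in LMNA, LMNB1 and LMNB2, 8 over the 4 groups and 1 among the lamins, where all windows gave 5.19%, 4.78%, 5.72%, 5.81% and 6.24%. These came from few genes, whose windows can overlap and share reads. GNAS-AS1 alone gave 0 of them in LMNA, 5 in LMNB1, 7 in LMNB2 and 4 over the 4 groups. MIMT1 gave 2 in LMNA, 4 in LMNB1 and 1 in LMNB2. Per kb, KCNQ1OT1's 0.00580 CPM was below the 0.0139 of GNAS-AS1 and the 0.00610 of PWAR5, and above the 0.00254 of PWARSN, the 0.00253 of HYMAI and the 0.000784 of WT1-AS. PWAR5, PWARSN and WT1-AS did not pass the filter. Their longest intervals averaged 3.08, 0.667 and 2.92 counts per library, so their places in this order are uncertain.

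Among 16907 tested small RNA features of at least median level that overlap no member, the profile over the 12 libraries was most like that of KCNQ1OT1 for LINC01033 (Pearson r = 0.94 of log2 CPM after adding 0.5 to each count), lnc-MYOZ1-1 (0.86) and AC004158.1 (0.85). For SNHG14 the closest were lnc-WSB2-3 (0.87), lnc-MCM6-2 (0.85) and NONHSAG015183.2 (0.83), and for MEG8 lnc-ZNF93-1 (0.91), AC009975.2 (0.90) and lnc-P2RX5-2 (0.90). These are the highest of many correlations over few libraries that share their scaling, and they are given as a description.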

How the data were processed

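The authors deposited whole-number raw counts, a table per assay, for 12 small RNA and 12 ATAC libraries, and their build is GRCh38 per the submitters' processing notes. How reads were aligned and counted, and how strand, multi-mapping reads and duplicates were treated, is not given in the sources used here. Per the file values, intervals extend 25 bp beyond the gene on each side, and ATAC windows extend 125 bp further. All 24 count columns matched a library, and no sample column was left unused. Rows that name these genes by Ensembl identifier were not members. Each assay was fitted with all 12 libraries in edgeR 4.0.16 (R 4.3.3; filterByExpr, TMM, robust quasi-likelihood, prior count 2), with Benjamini-Hochberg adjustment over all tested features and calls at an adjusted p under 0.05. Standard errors were the fold change divided by the square root of F. CPM used TMM-scaled library sizes. Overlapping short features inside an interval were counted a single time. The rule for naming intervals covered the longest, the longest tested, and the most and least dense of each gene. The parts compared within KCNQ1OT1, SNHG14, H19 and MEG8 lay outside this rule. So did the H19 and MEG3 intervals nearest to RefSeq, the single flanks described and the intervals marked as chosen after their values were seen. The members and lists were chosen with earlier results of these data known. The scripts were tested on simulated counts. Alternatives were DESeq2 1.42.0, other scalings and filters, a replicate block and leaving out each library. Sequences are from RefSeq (GRCh38.p14).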

Additional observations from a re-analysis of the deposited data

How the results depend on the processing

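No member was called under any of the 21 alternatives in small RNA or the 22 in ATAC, a threshold of 0.1 in place of 0.05 included. The smallest adjusted p under any of them was 0.137 in small RNA (only the libraries compared, among the lamins) and 0.0841 in ATAC (total counts only, LMNB1). The deviations of same-numbered libraries correlated at -0.0391 to 0.226 in small RNA, over 0.1 for 2 of 18 pairs, and at -0.0637 to 0.166 in ATAC, over 0.1 for 1 of 18. The replicate block left 0 members called in both assays. Over all ATAC windows it changed the calls from 1 to 60 in LMNA, 5 to 4 in LMNB1 and 4 to 4 in LMNB2. Over the 4 groups they went from 69 to 393 and among the lamins from 150 to 553. In small RNA the LMNB2 calls went from 901 to 729. Whether the replicate numbers pair the libraries is therefore not settled.

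The fold changes near 0 changed sign under some settings. Total counts without TMM shift the median of all tested features, to 0.11 in LMNB1 and 0.19 in LMNB2 for small RNA and to 0.09, 0.19 and 0.11 in LMNA, LMNB1 and LMNB2 for ATAC. Under it the small RNA log2 fold change was 0.0973 for KCNQ1OT1 in LMNB1, and for SNHG14 0.146 in LMNB1 and 0.188 in LMNB2. In ATAC it was 0.0191 for H19 in LMNB2, 0.0216, 0.176 and 0.0739 for KCNQ1OT1 in LMNA, LMNB1 and LMNB2, 0.111 for MEG8 in LMNB1, and 0.0619 and 0.140 for SNHG14 in LMNA and LMNB1. For SNHG14 in LMNB1, at -0.0010 in small RNA, the value was 0.0183 with DESeq2's size factors, 0.037 with no count filter, 0.0046 with a mean of at least 10 counts, 0.0167 with DESeq2's test, 0.0038 with only the libraries compared and 0.0004 without lamin and mitochondrial features.

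Leaving out each library in turn gave small RNA ranges of -0.179 to 0.025 and -0.0825 to 0.148 for KCNQ1OT1 in LMNB1 and LMNB2, -0.397 to 0.0024 and -0.317 to 0.0638 for MEG8 in LMNA and LMNB1 (0.238 to 0.615 in LMNB2, with no change of sign), and -0.0577 to 0.079 and -0.0774 to 0.0139 for SNHG14 in LMNB1 and LMNB2. The ATAC ranges were -0.08 to 0.0864 for H19 in LMNB1, -0.0434 to 0.0203 and -0.0741 to 0.0203 for KCNQ1OT1 in LMNB1 and LMNB2, -0.0141 to 0.157 for the longest MEG3 window in LMNA, -0.0309 to 0.0564 for MEG8 in LMNB2, and -0.119 to 0.0773, -0.155 to 0.0563 and -0.0235 to 0.14 for SNHG14 in LMNA, LMNB1 and LMNB2. The cause of these sign changes was not tested; none of the values was called. Over all features the number of calls depended on the setting, for example 1 ATAC window in LMNA against 184 with total counts only, and 901 small RNA features in LMNB2 against 21 with only the libraries compared.

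Depth limited the small RNA results. H19 and MEG3 did not pass the filter of the main fit. Their intervals with counts entered the alternative with no count filter, which called none of them. Less the short features inside it, MEG8's longest interval fell to 0.0234 CPM in GFP and 0.0194 in LMNB2. This is near the level of 3 counts (0.0169 to 0.0258 CPM per library), so its own RNA could not be compared apart from its snoRNAs.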
